A study of Homo sapiens with 6 samples.

Results

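The subunits of the transcription factor NF-κB and the genes that feed back on it were followed by RNA sequencing of BxPC-3, a long-established human line from a pancreatic carcinoma. The 10 genes were picked by symbol from the 26255 symbols of the expression files, as a list drawn up with earlier results of these data known. They comprise the 5 subunits (NFKB1, NFKB2, RELA, RELB and REL), 3 members of the inhibitor of κB (IκB) family (NFKBIA, NFKBIE and NFKBIZ), the ubiquitin-editing enzyme TNFAIP3, and the ubiquitin ligase BIRC3. All 10 were found and had more than 1 FPKM (sequenced fragments scaled for transcript length and for library size) in each of the 6 libraries. There were 2 libraries from cells that received no treatment (Parent), 2 from cells given a negative control (NC-1) and 2 from cells given the microRNA miR-4711-5p, and the study describes RNA taken 36 h after transfection. The study asked which genes change in expression when miR-4711-5p is introduced. NC-1 is described as a negative control treatment, and which RNA it was is not given in the sources used here. Parent cells differ from NC-1 cells by transfection as well as by the control RNA, and these cannot be told apart. The same cell line was used in all 3 groups, and nothing states that the 2 libraries of a group came from separate cultures, so the tests measure the spread between these libraries, which may be technical.

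NF-κB is a family of dimers that are held in the cytoplasm by IκB proteins. In the canonical pathway, the IκB kinase marks NFKBIA for degradation and dimers such as RELA with the processed product of NFKB1 enter the nucleus, whereas the noncanonical pathway acts through processing of NFKB2 and its partner RELB. NF-κB switches on genes for chemokines, cytokines and survival factors, and also for its own inhibitors NFKBIA and TNFAIP3, which makes a negative feedback loop. Activity of the pathway is a known feature of many pancreatic cancers. FPKM measures mRNA, and neither protein nor nuclear entry of the subunits was measured in these libraries.

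The mature microRNA is shown first because its seed, bases 2 to 8 (in capitals), sets which 3′ UTR letters were searched. It is given by RefSeq on the minus strand of GRCh38.p14 at chr1:59733269-59733291.
hsa-miR-4711-5p: uGCAUCAGgccagaagacaugag
A 3′ UTR site was counted as 7mer-m8 (CTGATGC), 7mer-A1 (TGATGCA) or both at once, 8mer (CTGATGCA). These letters occurred in the longest annotated 3′ UTR of 2 of the 10 genes, against 18.5% of the 10593 tested genes with a matched 3′ UTR, and no member had an 8mer. The windows below are from GRCh37, the build that is also called hg19, with the site in capitals. The site in REL is a 7mer-A1 at chr2:61154733-61154739, position 5063 of a 3′ UTR of 9077 nucleotides, and is present in 2 of 4 coding transcripts. The site in BIRC3 is a 7mer-m8 at chr11:102209753-102209759, position 1920 of 2301 nucleotides, also in 2 of 4 coding transcripts.
REL: cactccagtatTGATGCAgtcaatcttgt
BIRC3: atctctgcattCTGATGCtgggagactta
Neither of these genes was lower in the miR-4711-5p libraries in any comparison (values below).

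The promoters of several members carry letters that match the binding site of NF-κB, which is shown because it is the sequence feature that the feedback genes share. RefSeq promoter windows of 300 bases (250 before and 50 after an annotated start, GRCh38.p14) were available for 8 of the 10 genes, and RELB and NFKBIE were not in that table. The kappaB consensus of 10 letters was searched on both strands. It matched in at least 1 promoter of 7 of these 8 genes (87.5%), against 17.3% of 8975 tested genes and 13.3% of all genes in the table. Counted by window, 9 of 13 member promoters (69.2%) held a match, against 13.4% of the promoters of tested genes. RELA had no match in its promoters. In the following lines the match is in capitals and the strand is that of the gene.
NFKB1 (chr4:102501310-102501319, plus strand): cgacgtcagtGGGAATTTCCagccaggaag
NFKB2 (chr10:102395684-102395693, plus strand): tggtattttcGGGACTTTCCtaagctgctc
REL (chr2:60881527-60881536, plus strand): cgtcagccgcGGGAAATTCCcctcccgcca
NFKBIA (chr14:35404821-35404830, minus strand): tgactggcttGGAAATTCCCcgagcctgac
NFKBIZ (chr3:101827767-101827776, plus strand): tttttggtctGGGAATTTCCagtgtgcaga
TNFAIP3 (chr6:137867204-137867213, plus strand): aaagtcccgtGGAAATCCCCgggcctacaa
BIRC3 (chr11:102317349-102317358, plus strand): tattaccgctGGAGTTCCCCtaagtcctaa
The matches began 49 bases before the start in NFKB1, 21 in NFKB2, 47 in REL, 81 in NFKBIA, 223 in NFKBIZ, 55 in TNFAIP3 and 135 in BIRC3. NFKB2, NFKBIZ, TNFAIP3 and BIRC3 each had at least 1 further match elsewhere in their promoters. Matches on opposite strands may overlap, as in REL, where a match on the other strand begins 1 base further on. A match is a match of letters only and binding was not measured. The members are textbook NF-κB genes, so the share is a description of a list that was chosen with this in view.

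**Figure D1:**
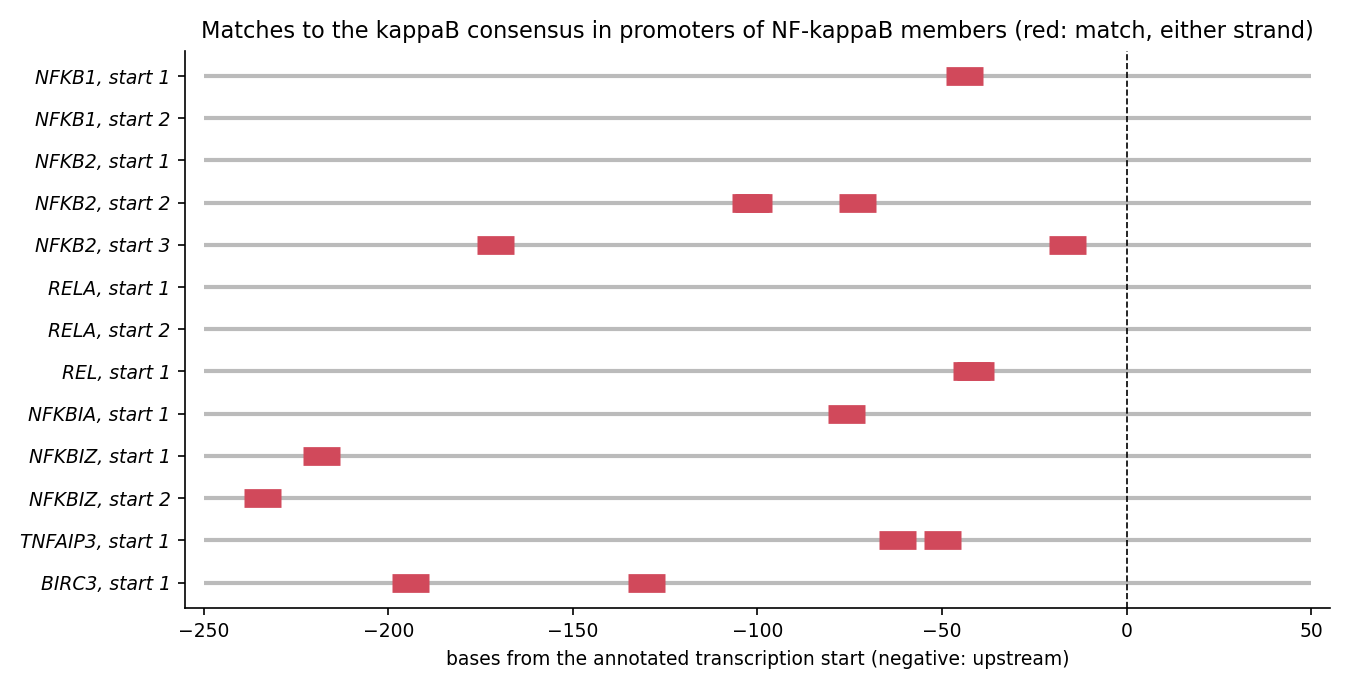
Position of each match to the kappaB consensus (red block, either strand) in the 13 RefSeq promoter windows of 8 members, with the x axis in bases from the annotated start (dashed line) and 1 row per start. Matches lie before the start in 9 windows, and both RELA windows have none.

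Among the 5 subunits, NFKB2 and RELB rose in the miR-4711-5p libraries, and NFKB1, RELA and REL were not called in any of the 3 comparisons with the libraries scaled as deposited, although NFKB1 and RELA were called against Parent when all libraries were set to an equal sum of FPKM (below). In each comparison, log2(FPKM + 1) was tested by limma over the 12040 genes whose 6-library mean reached 1 FPKM, with Benjamini-Hochberg adjustment at 0.05, and every adjusted p below is from this fit. Fold changes of single genes are ratios of mean FPKM. Since these are bulk libraries, more RNA in each cell and more cells with a gene switched on cannot be told apart.

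NFKB2 (chr10:104153867-104162281, GRCh37), the noncanonical subunit precursor, had 30.9 and 29.1 FPKM in Parent, 39.3 and 36.7 in NC-1, and 46.2 and 45.8 in miR-4711-5p. The 3 groups did not overlap and the order was Parent, NC-1, miR-4711-5p. The mean was 1.53-fold higher in miR-4711-5p than in Parent (log2 difference 0.60 ± 0.05 SE, adjusted p = 0.000194) and 1.21-fold higher than in NC-1 (0.27 ± 0.05, adjusted p = 0.00753). NC-1 was 1.27-fold above Parent (0.33 ± 0.05, adjusted p = 0.00650). The call against NC-1 was lost without replicate 1 of miR-4711-5p (adjusted p = 0.0552).

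RELB (chr19:45504719-45541450), the partner of processed NFKB2, had 16.5 and 14.2 FPKM in Parent, 18.0 and 18.1 in NC-1, and 24.2 and 23.1 in miR-4711-5p. Its groups were also separate and in the same order. RELB was 1.54-fold above Parent (log2 difference 0.59 ± 0.07 SE, adjusted p = 0.000791) and 1.31-fold above NC-1 (0.37 ± 0.07, adjusted p = 0.00689) in the miR-4711-5p libraries. NC-1 exceeded Parent 1.17-fold without passing the threshold (0.22 ± 0.07, adjusted p = 0.0636), and this was called without replicate 1 of Parent (adjusted p = 0.0342). Without replicate 1 of miR-4711-5p, RELB was no longer called against NC-1 (adjusted p = 0.0595).

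NFKB1 (chr4:103422487-103538459), the canonical subunit precursor, had 41.5 and 42.0 FPKM in Parent, 40.1 and 39.5 in NC-1, and 41.2 and 41.8 in miR-4711-5p. The miR-4711-5p and Parent values overlapped. The log2 difference from Parent was -0.01 (95% interval -0.11 to 0.09, adjusted p = 0.891), and that from NC-1 was 0.06 (-0.04 to 0.16, adjusted p = 0.313).

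RELA (chr11:65421070-65430561), which carries a strong activation domain, had 46.9 and 44.7 FPKM in Parent, 48.3 and 45.6 in NC-1, and 49.3 and 48.1 in miR-4711-5p. Values of NC-1 overlapped with those of both other groups. The log2 difference between miR-4711-5p and Parent was 0.09 (95% interval -0.03 to 0.21, adjusted p = 0.206), and that between miR-4711-5p and NC-1 was 0.05 (-0.07 to 0.17, adjusted p = 0.461).

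REL (chr2:61108626-61158747), a subunit best known from lymphocytes, was the lowest subunit in all 6 libraries. It had 3.30 and 3.23 FPKM in Parent, 3.19 and 3.54 in NC-1, and 3.55 and 3.76 in miR-4711-5p. The ranges of Parent and NC-1 overlapped, and both miR-4711-5p values were above them by a small margin. The log2 difference was 0.13 from Parent (95% interval -0.07 to 0.32, adjusted p = 0.254) and 0.09 from NC-1 (-0.10 to 0.29, adjusted p = 0.401). At this level the intervals leave room for a change of either sign.

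The makeup of subunit mRNA shifted accordingly. Of the summed FPKM of the 5 subunits, NFKB2 made up 22.2% and 21.9% in Parent, 26.4% and 25.6% in NC-1, and 28.1% and 28.2% in miR-4711-5p. The share of NFKB1 went from 29.8% and 31.6% in Parent to 25.1% and 25.7% in miR-4711-5p. RELA went from 33.7% and 33.5% to 30.01% and 29.57%, and RELB from 11.9% and 10.6% to 14.7% and 14.2%. The shares of NFKB2 and RELB were therefore higher, and those of NFKB1 and RELA lower, in both miR-4711-5p libraries than in both Parent libraries, while the FPKM of NFKB1 and RELA were not called with the libraries scaled as deposited. The ratio of NFKB2 to NFKB1, which does not depend on how the libraries were scaled, was 0.746 and 0.693 in Parent, 0.980 and 0.930 in NC-1, and 1.12 and 1.10 in miR-4711-5p. NFKB2 mRNA was thus below NFKB1 in every control library and above it in both miR-4711-5p libraries. The ratio of RELB to RELA was 0.352 and 0.318 in Parent, 0.372 and 0.396 in NC-1, and 0.490 and 0.481 in miR-4711-5p. These within-library ratios are given as a description and were not tested.

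**Figure D2:**
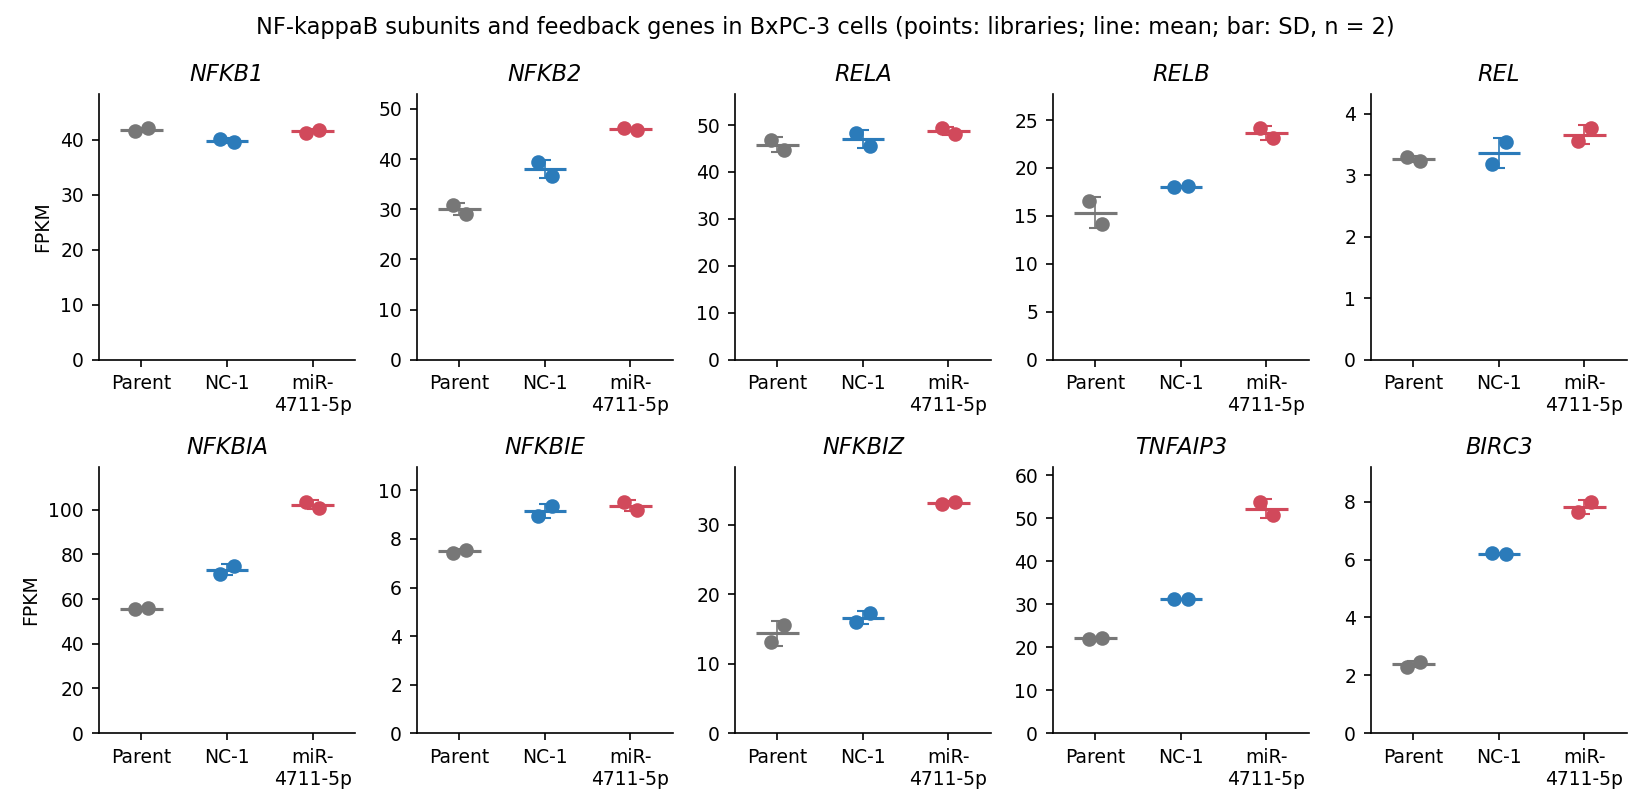
FPKM of the 10 genes (y axis from 0, a separate scale for each gene) in the 2 libraries of Parent, NC-1 and miR-4711-5p, where points are libraries, horizontal lines are means and bars are the SD. The means of NFKB1 lie between 39.8 and 41.8 FPKM, and TNFAIP3 goes from 22.1 FPKM in Parent to 52.3 in miR-4711-5p.

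The 3 IκB family genes among the members were higher in miR-4711-5p than in Parent, and 2 of them were also higher than in NC-1. Other genes of this family, listed with the brakes below, did not all do so. NFKBIB was not called against Parent (0.06, adjusted p = 0.401) and was higher than NC-1 (0.38, adjusted p = 0.00223). NFKBID and BCL3 were higher than Parent (0.38, adjusted p = 0.0272 and 0.24, adjusted p = 0.0145) and were not called against NC-1. NFKBIA (chr14:35870285-35873955) encodes IκBα, the main cytoplasmic inhibitor and a direct target of NF-κB. It was the member with the highest level in each group, with 55.5 and 55.8 FPKM in Parent, 71.38 and 75.01 in NC-1, and 103.6 and 101.0 in miR-4711-5p. The groups stood well apart. NFKBIA was 1.84-fold above Parent (log2 difference 0.87 ± 0.04 SE, adjusted p = 1.54e-05) and 1.40-fold above NC-1 (0.48 ± 0.04, adjusted p = 0.000253) in miR-4711-5p. It was already 1.32-fold higher in NC-1 than in Parent (0.39 ± 0.04, adjusted p = 0.00206). The ratio of NFKBIA to RELA was 1.18 and 1.25 in Parent, 1.48 and 1.64 in NC-1, and 2.10 in both miR-4711-5p libraries.

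NFKBIZ (chr3:101546835-101579866) encodes IκBζ, an atypical nuclear family member that acts as a cofactor at genes such as IL6. It had 13.1 and 15.6 FPKM in Parent, 16.0 and 17.3 in NC-1, and 32.9 and 33.3 in miR-4711-5p. The miR-4711-5p values were far from all 4 control values, which lay close together. NFKBIZ was 2.31-fold above Parent (log2 difference 1.16 ± 0.08 SE, adjusted p = 6.72e-05) and 1.99-fold above NC-1 (0.95 ± 0.08, adjusted p = 0.000197), the largest difference of any member from NC-1. NC-1 and Parent differed by 0.20 ± 0.08 (adjusted p = 0.115), which passed the threshold without replicate 2 of Parent (adjusted p = 0.0354). An exon of NXPE3 overlaps NFKBIZ on the same strand. NXPE3 had 6.04 and 6.36 FPKM in Parent, 7.39 and 7.65 in NC-1, and 5.79 and 5.26 in miR-4711-5p. Both genes thus had higher values in NC-1 than in Parent, a difference that was not called for NFKBIZ. In miR-4711-5p NXPE3 was lowest and NFKBIZ highest, and the number of reads shared between these genes was not measured.

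NFKBIE (chr6:44225903-44233525) encodes IκBε, a slower cytoplasmic inhibitor. It had 7.43 and 7.55 FPKM in Parent, 8.95 and 9.34 in NC-1, and 9.54 and 9.21 in miR-4711-5p. Both transfected groups were above Parent and overlapped with each other. NFKBIE was 1.25-fold above Parent in miR-4711-5p (log2 difference 0.29 ± 0.06 SE, adjusted p = 0.00679) and 1.22-fold above Parent in NC-1 (0.26 ± 0.06, adjusted p = 0.0192). Between miR-4711-5p and NC-1 the difference was 0.03 (95% interval -0.11 to 0.17, adjusted p = 0.697). The first call was lost without replicate 1 of miR-4711-5p (adjusted p = 0.0589), and the call of NC-1 against Parent was lost when any of the 4 libraries concerned was left out (adjusted p from 0.0589 to 0.0893).

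TNFAIP3 and BIRC3, which act on ubiquitin chains at the receptors, were also higher in miR-4711-5p than in both controls. TNFAIP3 (chr6:138188351-138204451) encodes A20, which removes and attaches ubiquitin to shut the signal down. It had 22.0 and 22.2 FPKM in Parent, 31.2 and 31.1 in NC-1, and 53.8 and 50.7 in miR-4711-5p. The groups were separate by many times the spread within them. TNFAIP3 was 2.36-fold above Parent (log2 difference 1.204 ± 0.05 SE, adjusted p = 5.88e-06) and 1.68-fold above NC-1 (0.73 ± 0.05, adjusted p = 5.42e-05) in miR-4711-5p, and 1.41-fold above Parent in NC-1 (0.48 ± 0.05, adjusted p = 0.00149).

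BIRC3 (chr11:102188215-102210134) encodes cIAP2, a ligase that works with TRAF proteins in receptor complexes. It had 2.30 and 2.46 FPKM in Parent, 6.24 and 6.19 in NC-1, and 7.650 and 8.001 in miR-4711-5p. Its groups were ordered without overlap, with the wider gap between Parent and NC-1. BIRC3 was 3.29-fold above Parent in miR-4711-5p (log2 difference 1.38 ± 0.07 SE, adjusted p = 1.35e-05), and 2.61-fold above Parent in NC-1 (1.09 ± 0.07, adjusted p = 0.000371). As a low gene, its log2 difference from Parent depended on the pseudocount and was 1.68 with a pseudocount of 0.1 and 0.80 with 5. The difference between miR-4711-5p and NC-1 was 1.26-fold (0.29 ± 0.07, adjusted p = 0.0142). This last call was lost when any of the 4 libraries concerned was left out, with adjusted p of 0.0568 without replicate 1 of NC-1, 0.0607 without replicate 2 of NC-1, 0.0595 without replicate 1 of miR-4711-5p and 0.0950 without replicate 2. The 2 steps of NFKBIZ (1.16-fold from Parent to NC-1, then 1.99-fold) and of BIRC3 (2.61-fold, then 1.26-fold) thus ran in different proportion, and that difference was not tested.

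**Figure D3:**
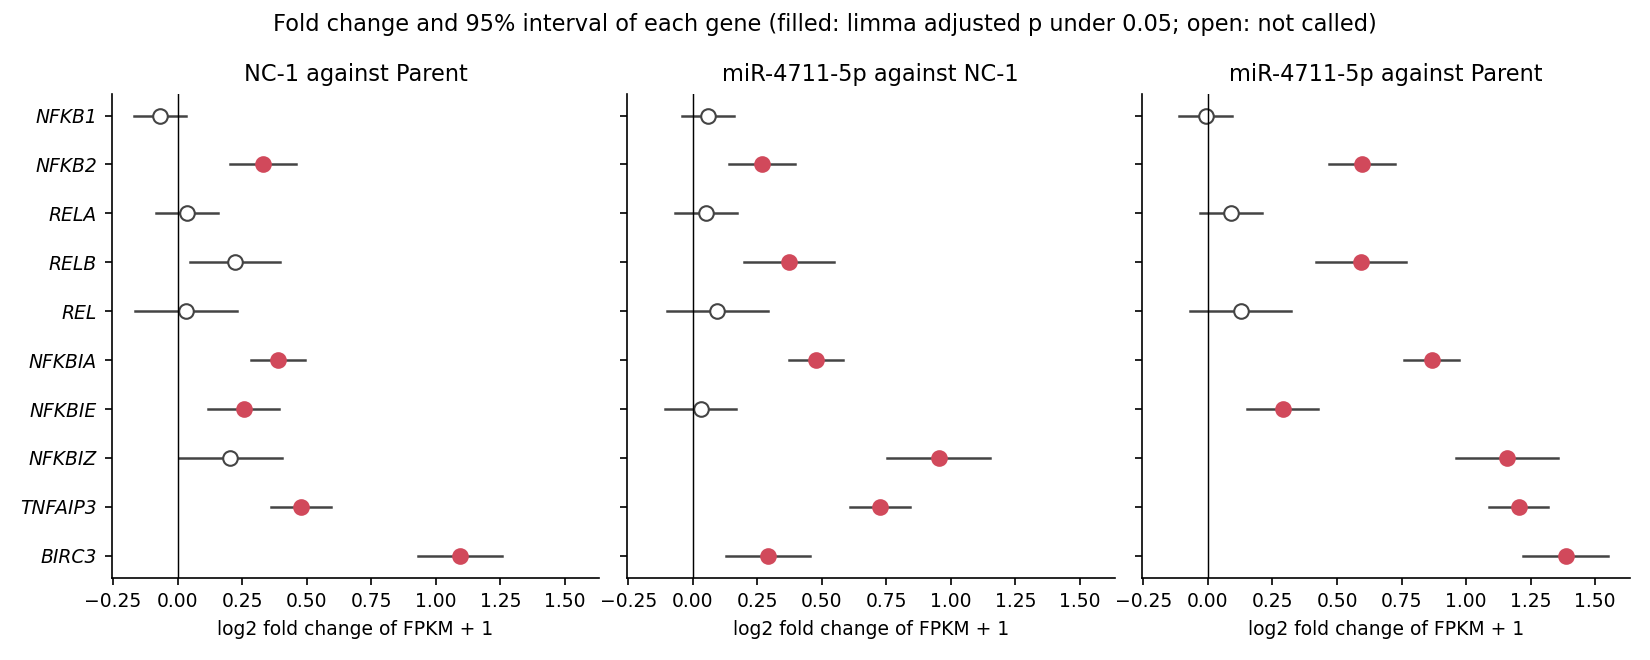
Difference of each gene in log2(FPKM + 1), x axis, with its 95% interval from limma, for NC-1 against Parent, miR-4711-5p against NC-1 and miR-4711-5p against Parent. Filled red points passed an adjusted p of 0.05 and open points did not, and NFKB1, RELA and REL are open in all 3 panels, which show the libraries as deposited (with an equal sum of FPKM, NFKB1 and RELA pass against Parent).

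Counted over the list, 7 of the 10 members were higher in miR-4711-5p than in Parent, none was lower and 3 were not called, beside 18.7% higher and 24.7% lower of all 12040 genes tested. With an equal sum of FPKM 9 members were higher, beside 33.3% of all genes. Against NC-1, 6 members were higher, none was lower and 4 were not called, beside 18.4% higher and 21.2% lower of all genes. In NC-1 against Parent, 5 members were higher, none was lower and 5 were not called, beside 12.1% higher and 15.1% lower of all genes. The median log2 difference of the 10 members was 0.60, 0.28 and 0.24 in these comparisons, and that of all genes was -0.01, 0.00 and -0.01. The comparisons share libraries and are not independent of each other. In 6 members (NFKB2, RELB, NFKBIA, NFKBIZ, TNFAIP3 and BIRC3) both NC-1 values lay above both Parent values and below both miR-4711-5p values, a pattern found in 8.46% of all genes tested.

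How the libraries are scaled bears on the smaller differences. The sum of FPKM over all symbols ran from 493145 in miR-4711-5p to 550772 in Parent. When every library was set to the same sum, a choice made after the data were seen, the median of all genes moved up by 0.12 on the log2 scale in miR-4711-5p against Parent, and NFKB1 (0.13, adjusted p = 0.0463) and RELA (0.22, adjusted p = 0.00982) were then called higher. Relative to the median of all genes they stood at 0.02 and 0.12. The share of higher among all called genes went from 43.1% to 69.3% in that comparison, from 46.5% to 58.4% against NC-1, and from 44.4% to 69.9% in NC-1 against Parent. Setting the libraries by their median ratio instead moved the median by at most 0.02 and changed no call of a member, while NFKB1 against Parent went from -0.01 to 0.010 without being called.

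Within a group, levels per length can be compared between members. In Parent the order of mean FPKM was NFKBIA (55.7), RELA (45.8), NFKB1 (41.8), NFKB2 (30.04), TNFAIP3 (22.1), RELB (15.4), NFKBIZ (14.3), NFKBIE (7.49), REL (3.26) and BIRC3 (2.38). Neighbours in this order were separate in both libraries except RELB and NFKBIZ, which overlapped. NC-1 kept this order except that BIRC3 (6.21) stood above REL (3.36). In miR-4711-5p, TNFAIP3 (52.3) stood at place 2 below NFKBIA (102.3), and above RELA (48.7), NFKB2 (46.0) and NFKB1 (41.5). NFKBIZ (33.1) also passed RELB (23.6) there. The inhibitor and the editing enzyme of the feedback loop were thus both above each subunit in the miR-4711-5p libraries, whereas in Parent TNFAIP3 was below 3 subunits.

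**Figure D4:**
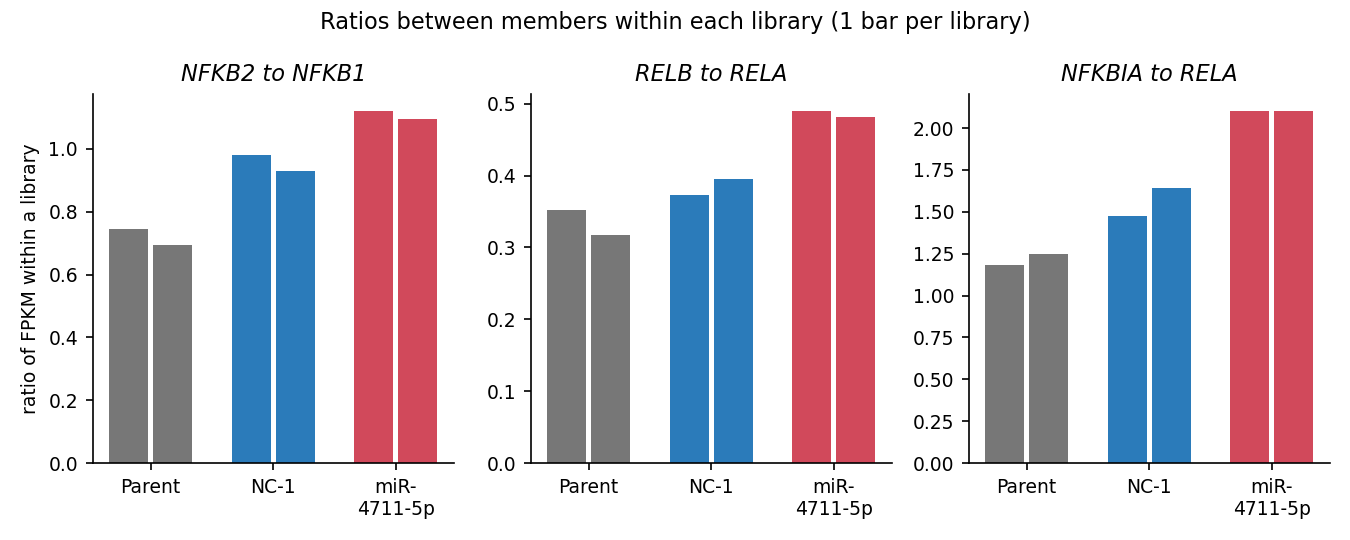
Ratio of FPKM between pairs of members within each library (y axis from 0, 1 bar for each library). NFKB2 to NFKB1 rises from 0.693 and 0.746 in Parent to 1.10 and 1.12 in miR-4711-5p, and NFKBIA to RELA reaches 2.10 in both miR-4711-5p libraries.

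Of 104 other genes of the pathway, listed by role, 84 passed the filter. In miR-4711-5p against Parent 48 were higher (57.1%), 8 lower (9.52%) and 28 not called, beside 18.7% higher and 24.7% lower of all genes. Against NC-1 34 were higher (40.5%), 17 lower (20.2%) and 33 not called, beside 18.4% and 21.2% of all genes. The share lower than NC-1 was thus near that of all genes. In NC-1 against Parent 28 were higher (33.3%), 3 lower (3.57%) and 53 not called, beside 12.1% and 15.1% of all genes. Few ligands were measurable, since 3 of 11 passed. Of these, 1 was higher and 1 lower than Parent (33.3% each way), and 1 was higher and 2 lower than NC-1 (33.3% and 66.7%). IL1B, named because of its values, was lower in miR-4711-5p than in NC-1 (-0.24, adjusted p = 0.00802) and was not called against Parent (0.02, adjusted p = 0.736). It was higher in NC-1 than in Parent (0.26, adjusted p = 0.0101). IL1A, an alarm cytokine, was higher in miR-4711-5p than in Parent (log2 difference 0.66, adjusted p = 0.000103) and NC-1 (0.25, adjusted p = 0.00869), whereas the cytokine IL18 was lower than in both (-0.61, adjusted p = 0.000236 and -0.20, adjusted p = 0.0298). The gene for tumor necrosis factor itself, TNF, did not pass the filter and stayed below 1 FPKM in every library.

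Among receptors, 9 of 15 passed, of which 7 were higher (77.8%) and none lower than Parent, beside 18.7% and 24.7% of all genes. Against NC-1 5 receptors were higher (55.6%) and 2 lower (22.2%), beside 18.4% and 21.2% of all genes. Those with the largest differences in the same direction against both controls were IL1R1, the receptor of interleukin-1 (0.53 against NC-1, adjusted p = 0.0164), TLR3, which senses double-stranded RNA (0.48, adjusted p = 0.0175), TNFRSF12A (0.42, adjusted p = 0.00253) and LTBR, a receptor of the noncanonical pathway (0.33, adjusted p = 0.00223). The 2 receptors lower than NC-1 were TNFRSF1B (-0.29) and IL1RAP (-0.27), which are named here because of their values. For the IκB kinase group, 5 of 7 were higher than Parent (71.4%, beside 18.7% of all genes) and none was lower. Against NC-1 3 were higher (42.9%, beside 18.4% of all genes) and none was lower. These 3 were the kinases TBK1 (0.33, adjusted p = 0.00706), IKBKB (0.22, adjusted p = 0.0301) and IKBKE (0.19, adjusted p = 0.0392).

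Of 23 adaptors, 5 were higher and 5 lower than Parent (21.7% each way, near the shares of all genes), and 3 were higher and 7 lower than NC-1 (13.0% and 30.4%, beside 18.4% and 21.2% of all genes). TRAF1, itself a known NF-κB target, had 5.28 and 5.57 FPKM in Parent, 8.88 and 8.60 in NC-1, and 15.6 and 15.8 in miR-4711-5p (0.78 against NC-1, adjusted p = 9.01e-05). TRAF3, which restrains the noncanonical pathway by keeping its kinase low, had 14.9 and 15.1 FPKM in Parent, 14.7 and 14.8 in NC-1, and 9.20 and 9.35 in miR-4711-5p. TRAF3 fell by 0.62 against NC-1 (adjusted p = 0.000148), and the log2 difference between NC-1 and Parent was -0.02 (95% interval -0.14 to 0.10). The interleukin-1 receptor kinases IRAK2 (-0.63 against NC-1, adjusted p = 0.000106) and IRAK4 (-0.43, adjusted p = 0.00497) were lower as well. IRAK2 had been higher in NC-1 than in Parent (means of 21.6 and 15.3 FPKM, log2 difference 0.48, adjusted p = 0.00143), and its 13.7 FPKM in miR-4711-5p was 0.15 below Parent on the log2 scale (adjusted p = 0.0419). The longest 3′ UTR of TRAF3 has 2 sites of the 7mer-m8 kind, shown with the site in capitals, each present in 5 of 6 coding transcripts.
TRAF3 (chr14:103376860-103376866, plus strand, GRCh37): cctcgtccaggCTGATGCtgatggtcaca
TRAF3 (chr14:103377739-103377745, plus strand, GRCh37): tttttgtgtttCTGATGCtaataactaaa
IRAK4 and OTULIN, described next, also have 2 sites each in their longest 3′ UTRs, while 16 of the 84 pathway genes (19.0%) have any, a share near that of all genes. Of these 16, 7 were lower than NC-1, beside 21.2% of all genes. Another 5 were higher (PDLIM2, SOD2, TNFAIP2, TNFAIP8 and PTGS2, named because of their values), beside 18.4% of all genes. The other 4 were not called. In miR-4711-5p against Parent, 5 of the 16 were higher, 5 lower and 6 not called, beside 18.7% higher and 24.7% lower of all genes. An 8mer is present in 3 of the pathway genes. TLR4 with 2 sites of the 8mer kind and CFLAR with 3 sites were not called, while IRAK3 was lower than NC-1 (-0.42, adjusted p = 0.0028). IRAK3 was higher in NC-1 than in Parent (0.28, adjusted p = 0.0220). It was not called in miR-4711-5p against Parent (-0.13, adjusted p = 0.149). The part of the sites in these differences was not tested.

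Of 15 other brakes on the pathway, 8 were higher (53.3%) and 1 lower (6.67%) than Parent, beside 18.7% and 24.7% of all genes. Against NC-1 4 brakes were higher (26.7%) and 3 lower (20%), nearer the 18.4% and 21.2% of all genes. ZC3H12A, an RNase that degrades cytokine mRNA, rose with the members, with means of 15.9 FPKM in Parent, 23.0 in NC-1 and 35.5 in miR-4711-5p (0.60 against NC-1, adjusted p = 0.000345). RNF11 (0.98, adjusted p = 0.000547), a partner of TNFAIP3, and PDLIM2 (0.68, adjusted p = 0.00349), which promotes turnover of RELA, were higher than NC-1. RNF11 was lower in NC-1 than in Parent (-0.65, adjusted p = 0.00672). OTULIN, which cleaves linear ubiquitin chains, had means of 11.3 FPKM in Parent, 11.1 in NC-1 and 8.16 in miR-4711-5p, and was lower than in NC-1 (-0.40, adjusted p = 0.00137). TNIP1 (-0.33, adjusted p = 0.00259) and ITCH (-0.32, adjusted p = 0.00325), named because of their values, were also lower than NC-1. Both were higher in NC-1 than in Parent (0.46, adjusted p = 0.00201 and 0.29, adjusted p = 0.00991). Neither was called in miR-4711-5p against Parent (0.13 and -0.04).

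Known target genes outside the 10 members showed the largest differences. Of 32 listed, 27 passed the filter. In miR-4711-5p against Parent 22 were higher (81.5%) and 1 lower (3.7%), beside 18.7% and 24.7% of all genes. In NC-1 against Parent 10 were higher (37%) and none lower, beside 12.1% and 15.1% of all genes. In miR-4711-5p against NC-1 18 were higher (66.7%) and 3 lower (11.1%), beside 18.4% and 21.2% of all genes. The 3 lower than NC-1, named because of their values, were BCL2L1 (-0.20), MMP9 (-0.82) and C3 (-0.72). MMP9 was nevertheless above Parent (0.52, adjusted p = 0.00126), and C3 was not called against Parent (-0.23, adjusted p = 0.0651). CXCL1, a chemokine that attracts neutrophils, had 7.96 and 8.83 FPKM in Parent, 12.3 and 14.2 in NC-1, and 89.3 and 99.4 in miR-4711-5p, which was 7.11-fold above NC-1 (log2 difference 2.74, adjusted p = 3.75e-06). The related chemokines CXCL8 (4.04-fold above NC-1, adjusted p = 0.00026) and CXCL3 (6.79-fold, adjusted p = 5.74e-06) were higher too. The cytokine IL6 had means of 0.171 FPKM in Parent, 0.642 in NC-1 and 7.02 in miR-4711-5p (log2 difference 2.29 from NC-1, adjusted p = 2.83e-05). IL6 was the single pathway gene that passed the filter through the miR-4711-5p libraries alone. Among the members, by comparison, the largest fold over NC-1 was 1.99 in NFKBIZ.

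**Figure D5:**
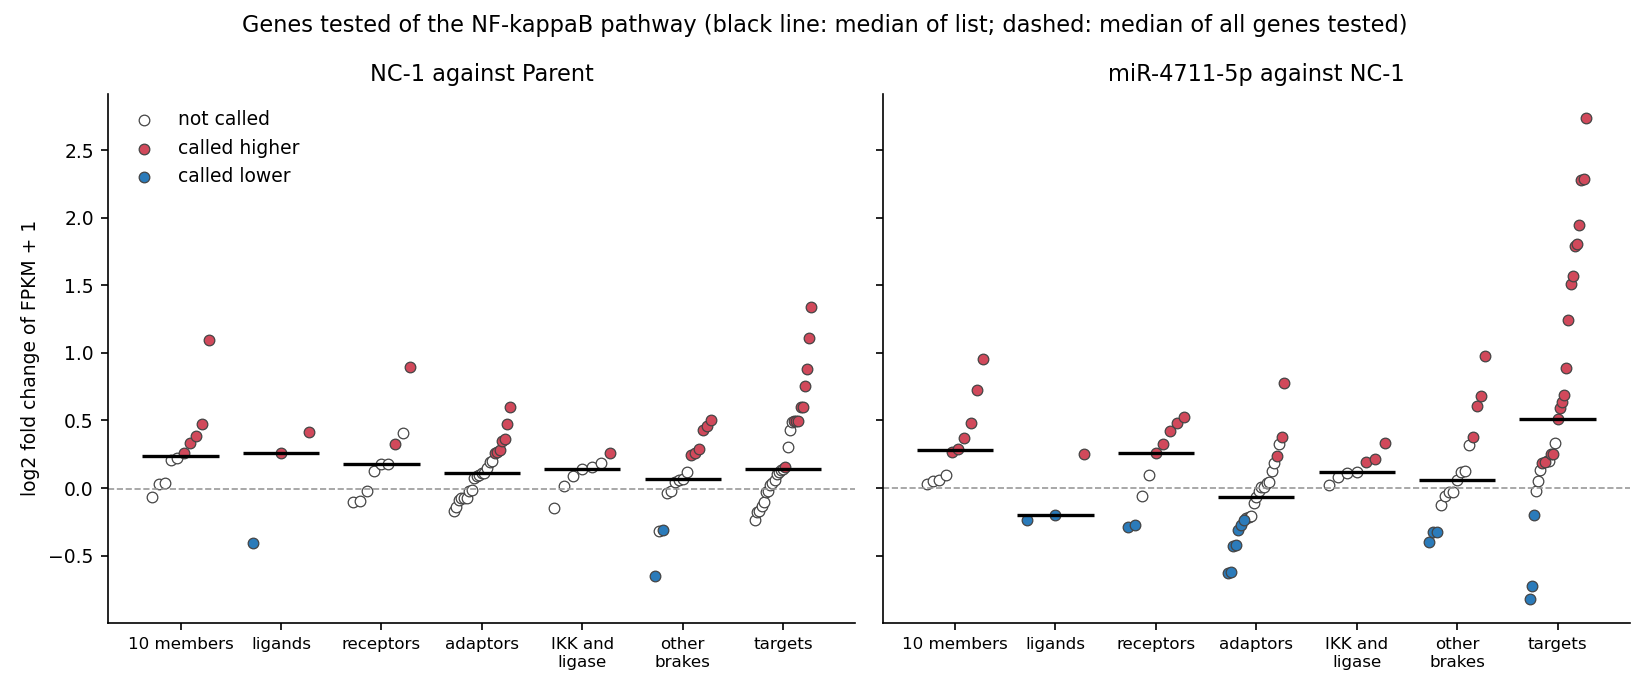
Difference in log2(FPKM + 1), y axis, of each tested gene in the 10 members and 6 lists of pathway genes, for NC-1 against Parent and miR-4711-5p against NC-1. Red and blue points were called higher and lower, black lines are list medians and the dashed line is the median of all genes. The targets reach 2.74 (CXCL1) against NC-1, and the adaptors spread to both sides.

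The kappaB consensus was matched in promoters of 14 of the 25 target genes in the promoter table, 7 of 15 brakes, 4 of 8 ligands and 4 of 20 adaptors. No receptor or IκB kinase gene in the table had a match. An AU-rich letter run (TTATTTATT), a known feature of short-lived mRNAs, was present in the longest 3′ UTR of REL, TNFAIP3 and BIRC3 (3 of 10 members, against 9.71% of all genes).

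Among 6641 other genes of 10 FPKM or more on average, those with a profile over the 6 libraries closest to the mean profile of the 10 members were GOLM1, FUT8, ENC1, NAMPT and NMI. The measure was the Euclidean distance of centred log2(FPKM + 1) values, which was 0.085 for the first and 0.098 for the fourth of them. GOLM1, for example, had means of 56.3 FPKM in Parent, 67.0 in NC-1 and 83.3 in miR-4711-5p. Of the members themselves, NFKB2 (0.117) and RELB (0.168) lay closest to their own mean profile and BIRC3 (0.899) farthest.

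The libraries had 16597 to 17305 symbols above 0. Their depth could only be estimated in relation to the first Parent library, of which it was 0.751 to 1.21 times. The estimate is the most frequent ratio between values under 0.1 FPKM, and 29.1% to 36.8% of those genes lay on that ratio, so it is rough. The 7 epithelial markers summed to between 5210 and 6277 FPKM, mostly from keratins such as KRT7. Within that list, CDH1 went from means of 115.3 FPKM in Parent and 109.5 in NC-1 to 29.6 in miR-4711-5p. MUC1 went from 30.4 and 24.4 to 15.1, and KRT19 from 1629 and 1274 to 901. KRT7 was also lowest in miR-4711-5p (1694 and 1789 to 1590). In contrast, KRT18 (1093 and 998.4 to 1251) and EPCAM (100.8 and 91.85 to 108.5) were highest there. KRT8 (1427 and 1128 to 1341) lay between Parent and NC-1, so the list did not move in one direction. The 7 leukocyte markers summed to 1.85 to 2.95 FPKM, of which CD14 made up 0.897 to 2.175 and TYROBP was at 0 throughout, and this sum is close to the level of REL. The 5 fibroblast markers summed to 1.30 to 2.45 FPKM. The 3 endothelial markers summed to 1.33 to 1.39 FPKM in Parent, 3.23 to 3.53 in NC-1 and 0.649 to 0.775 in miR-4711-5p. Most of this sum was CDH5, with means of 0.962, 3.02 and 0.541 FPKM. In the same groups VWF had means of 0.299, 0.190 and 0.121, and PECAM1 had 0.0971, 0.168 and 0.0497. The part of these markers in the results was not tested.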

How the data were processed

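RNA of BxPC-3 cells was made into strand-specific mRNA libraries by the authors, sequenced in single-end mode on an Illumina HiSeq instrument and mapped to hg19. The submitters' processing notes name TopHat2 2.1.1, Bowtie2 2.3.5.1, SAMtools 1.2, Cufflinks 2.2.1 and Cuffdiff without a version. The methods section of the paper gives other versions of the first 3. The deposited values are FPKM per gene symbol, a measure that corrects for gene length and library size. For the FPKM the paper names Cuffnorm, whereas the processing notes name Cuffdiff. The gene annotation, strand option and normalization option are not given in the sources used here. FPKM are not counts, so read depth was only estimated between libraries and no interval for counting error is given.

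From there, limma 3.58.1 in R 4.3.3 (moderated by eBayes with a mean trend) was run on log2(FPKM + 1) of the 12040 genes whose 6-library mean reached 1 FPKM, with all libraries in one fit (3 residual and 4.15 prior degrees of freedom). The pseudocount understates the change of low genes such as BIRC3 and REL. The tests were two-sided with Benjamini-Hochberg adjustment at 0.05. Sequences were read from GENCODE v44 lifted to GRCh37 (3′ UTRs) and RefSeq on GRCh38.p14 (promoters and the microRNA), and genes were matched by symbol. Python 3.11.15, numpy 2.4.6, pandas 2.3.3 and matplotlib 3.10.9 were used. Simulated data with known changes in a small share of genes were used to test this step. That share was below the shares called in these libraries, so the simulation does not measure error rates under their conditions. NFKBIZ shares an exon region with NXPE3 on the same strand, and RELA and TNFAIP3 overlap RELA-DT and WAKMAR2 on the opposite strand. Gene models without a name overlap REL on the same strand and BIRC3 on the opposite strand. Reads in the overlaps may be split between such genes.

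The members, the pathway lists and the tests were chosen with earlier results of these data known. Genes named from a pathway list were, unless stated, up to 4 per list with the largest difference from NC-1 among those called in the same direction against both controls. The alternatives were other pseudocounts, filters and scalings, eBayes without a trend, only the groups compared, a replicate block, and leaving out each library.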

Additional observations from a re-analysis of the deposited data

How the results depend on the processing

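Of 447 member differences under the alternatives, 424 kept direction and side of the threshold, 11 lost and 6 gained a call, and 7 changed sign, of which 1 also gained a call (NFKB1 against Parent with an equal sum). The sign changes were in differences that were not called as deposited. NFKB1 in miR-4711-5p against Parent became 0.010 with median-of-ratios scaling and 0.13 with an equal sum of FPKM, and ranged from -0.019 to 0.0012 when 1 library was left out. In NC-1 against Parent, NFKB1 became 0.016 with an equal sum, RELA ranged from -0.0040 (without NC-1 replicate 1) to 0.077 and REL from -0.025 (without NC-1 replicate 2) to 0.091. An equal sum called RELB in NC-1 against Parent (0.30, adjusted p = 0.0218), as did a filter at a mean of 5 FPKM (adjusted p = 0.0448).

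With 1 library left out, which leaves its group with 1 library assumed to vary like the others, members called ranged from 6 to 7 against Parent, from 3 to 6 against NC-1 (3 without miR-4711-5p replicate 1, where NFKB2, RELB and BIRC3 were lost) and from 4 to 5 in NC-1 against Parent. Pathway genes called in NC-1 against Parent ranged from 16 (without Parent replicate 1) to 26, beside 31 with all libraries. All genes called ranged from 3164 to 5135 against Parent, 2815 to 4639 against NC-1 and 1355 to 2296 in NC-1 against Parent, beside 5230, 4763 and 3279. Fewer libraries lower the power by construction. With no filter beyond a value above 0, NC-1 against Parent called 2165 genes, and the cause was not tested.

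Replicate numbers did not pair the libraries (correlation of deviations 0.061, 0.003 and -0.009 between groups). With the replicate block, 7, 6 and 5 members were called as before, and 4983, 4564 and 2864 of all genes. In Parent, REL and BIRC3 were the lowest members, and low values are the most limited by depth.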
